A study of Mus musculus with 9 samples.

Results

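Splenic monocytes of mice gavaged with vancomycin (Van) were compared with those of mice gavaged with water (Con), in 3 RNA sequencing libraries per group, over every gene whose FPKM averaged at least 1 over these 6 libraries. FPKM corrects the fragments of a gene for its transcript length and for the depth of the library, so it compares levels between genes as well as between libraries. The rule kept 11671 of the 46072 genes listed, and 24194 were detected in at least 1 of the 6 libraries. The lowest mean kept was 1.00 FPKM, of Rps18-ps1, and the highest left out was 0.9999 FPKM, of Gm20683. The series holds 9 libraries, and the remaining 3, from vancomycin-gavaged mice injected with the bacterial lipid L654, were not used here.

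All mice were female C57BL/6 mice of 8 to 10 weeks. Van mice received 2 mg of vancomycin per mouse and day, in 2 gavages of 1 mg, for 6 days, and Con mice received water on the same schedule. The labels give a rest without antibiotic of 6 to 8 days for all mice, whereas the account of sequencing gives 8 days for Con and Van mice. Monocytes were taken from the spleen by negative magnetic selection, a method that removes other cells with antibodies and leaves monocytes untouched, and no ligand was added before RNA was extracted. The labels number the libraries 1 to 3 within each group. The methods describe separate mice for sequencing and, for cultures, spleens combined in pairs. Whether spleens were combined for these libraries, and which cage each mouse lived in, are not given in the sources used here, so p-values measure only the spread between these libraries.

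Monocytes circulate in blood, wait in reserve in the spleen, and give rise to macrophages and dendritic cells in tissues. Classical monocytes carry Ly6C and the chemokine receptor CCR2, while nonclassical monocytes patrol vessels and depend on the transcription factor NR4A1. Vancomycin is an antibiotic against Gram-positive bacteria that is hardly absorbed from the gut, so oral doses act mainly on gut bacteria, and products of those bacteria are known to set the resting level of interferon-stimulated genes in myeloid cells elsewhere in the body.

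Changes were many and small. With the DESeq2 Wald test, 975 of the 11671 genes passed an adjusted p of 0.05, which is 8.35%. Of these, 503 (4.31%) were higher and 472 (4.04%) were lower in Van. The edgeR quasi-likelihood test called 296 of the 11599 genes it tested, or 2.55%, with 163 higher and 133 lower, and each of the 296 was among the 975 with the same sign. The limma test on log2(FPKM + 1) called 46, 34 higher and 12 lower. The median change of a called gene was 1.29-fold. Only 27 genes changed 2-fold or more, 20 higher and 7 lower, and 167 changed at least 1.5-fold, 82 higher and 85 lower. Normalized counts did not overlap between the groups for 25.3% of all 11671 genes and for 948 of the 975. Calls held in all 6 fits that each left out 1 library for 373 genes, 200 higher and 173 lower, and the fit without Van 2 called the fewest, 496. Of the 975, 12 averaged under 1 FPKM in Con and 11 in Van, so that these 23 met the rule of 1 FPKM through their higher group.

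The 6 libraries were alike in depth, with an estimated 16151385 to 23018927 fragments and 19991 to 20508 detected genes each. Their log2 levels correlated at 0.985 to 0.988 within a group and at 0.982 to 0.986 between groups. The first principal component held 29.7% of the variance and separated the groups, from -20.6 to -8.42 in Con and from 8.15 to 21.2 in Van. The second held 21.2% and spread the Van libraries from -19.9 for Van 1 to 20.2 for Van 3, around Con libraries at -3.41 to 7.23. Monocyte markers were present in every library, and the 14 classical markers summed to 11603 to 12552 FPKM in Con and to 10095 to 12978 FPKM in Van. The 14 nonclassical markers summed to 3467 to 3992 FPKM in Con and to 3529 to 4626 FPKM in Van. In bulk libraries such as these, fewer cells of a type and less RNA per cell cannot be told apart. Values after ± below are standard deviations over the 3 libraries of a group unless a standard error (SE) is named, and fold changes are those fitted by DESeq2 to counts.

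**Figure D1:**
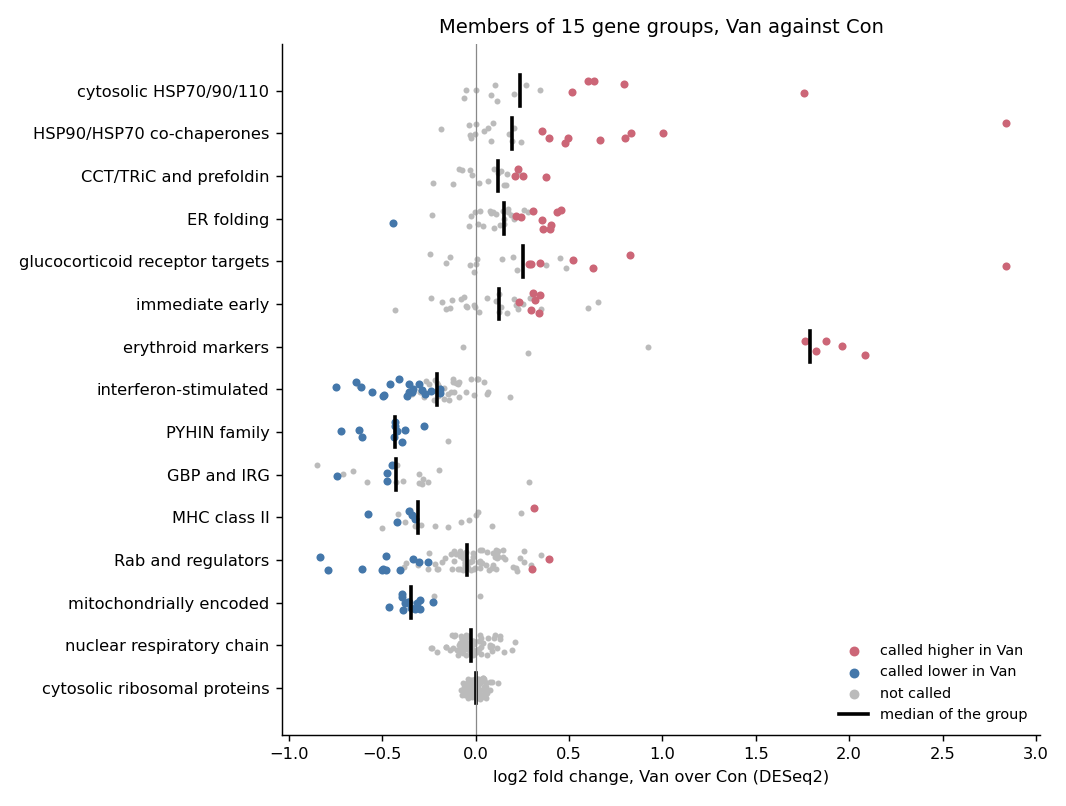
Log2 fold change of Van over Con (horizontal axis) for every member of 15 gene groups (rows), 1 point per gene, with genes called by DESeq2 in colour and the group median as a black bar. Chaperone genes and erythroid markers lie to the right, interferon-stimulated, PYHIN and mitochondrially encoded genes to the left, and the 82 cytosolic ribosomal protein genes sit in a narrow band at 0.

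Cytosolic chaperones were higher in Van wherever they were called. Heat shock proteins of the HSP70, HSP90 and HSP110 families bind unfolded proteins in the cytosol and are induced by heat shock factor 1. Of 14 cytosolic members, 5 rose and none fell, and the same number was called by edgeR and in each of the fits that left out 1 library. The median log2 fold change was 0.24, against 0.01 over all members. Hsph1 (GRCm38 chromosome 5, 149614287 to 149636376), the HSP110 that exchanges nucleotide on HSP70, was at 10.00, 8.05 and 8.91 FPKM in Con and 27.8, 34.05 and 31.1 FPKM in Van. Every Van library lay above every Con library, and the change was 3.38-fold, with 1.76 ± 0.08 (SE) on the log2 scale and an adjusted p in DESeq2 of 2.14e-98. Hspa8, the constitutive HSP70 and the most abundant of the group, was at 552, 513 and 524 FPKM in Con and 808, 857 and 793 FPKM in Van. Its groups were far apart for so small a fold, 1.52, and the DESeq2 adjusted p was 1.7e-22. The inducible HSP90 gene Hsp90aa1 rose from 49.9 ± 3.98 to 77.03 ± 5.09 FPKM and the constitutive Hsp90ab1 from 331 ± 42.5 to 475 ± 24.4 FPKM. Hspa4l, an HSP110 relative, rose from 4.57 ± 0.759 to 7.97 ± 0.863 FPKM. The stress-induced HSP70 genes Hspa1a and Hspa1b were not called. Hspa1a was at 48.4, 24.9 and 75.3 FPKM in Con and 50.4, 54.8 and 54.8 FPKM in Van, so that Con 3 exceeded each Van library. These 2 genes are near-identical copies whose reads can be exchanged.

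Co-chaperones that load clients onto HSP70 and HSP90 were also higher where they were called. Of 23 members of that list, 9 rose and none fell, 8 of them also by edgeR. Stip1, which bridges HSP70 and HSP90, was at 24.03, 21.3 and 21.7 FPKM in Con and 43.3, 48.9 and 43.1 FPKM in Van. That is a 2.00-fold change, with a DESeq2 adjusted p of 7.57e-30. Fkbp4, an immunophilin of steroid receptor complexes, rose from 17.4 ± 1.32 to 31.4 ± 1.77 FPKM, and Chordc1, an HSP90 partner, from 12.9 ± 0.8699 to 22.7 ± 2.39 FPKM. Ahsa1 and Ahsa2, activators of the HSP90 ATPase, had log2 fold changes of 0.50 and 0.67, although 47% of the exon sequence of Ahsa2 overlaps Usp34 on the opposite strand. Ptges3, the p23 co-chaperone, Bag3 and St13 had 0.48, 0.35 and 0.39. Cacybp, a partner of HSP90 and of ubiquitin ligases that was on no list and was chosen after its values were seen, rose from 14.5 ± 0.294 to 23.4 ± 0.867 FPKM. The transcription factor Hsf1 itself was at 15.03 ± 1.01 FPKM in Con and 17.1 ± 1.34 FPKM in Van and was not called. Leaving out 1 library ended the call of St13 at least once.

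Other folding machines showed smaller steps. Among 35 J-domain proteins, which stimulate the ATPase of HSP70, 4 rose and 1 fell. Dnaja1 was at 42.6, 38.9 and 42.1 FPKM in Con and 60.4, 63.8 and 63.5 FPKM in Van, with no overlap and a DESeq2 adjusted p of 2.1e-26, while Dnajb1, Dnajb2 and Dnajb4 had log2 fold changes of 0.32, 0.67 and 0.36 and Dnajc27 of -0.62. Of 19 subunits of the CCT chaperonin, prefoldin and tubulin cofactors, 4 rose (Cct3, Cct4, Cct6a and Cct8, by log2 values of 0.38, 0.22, 0.25 and 0.21) and none fell. Of 15 mitochondrial chaperones and proteases, only the HSP60 and HSP10 genes Hspd1 and Hspe1 rose, from 28.9 ± 2.05 to 40.1 ± 2.25 FPKM and from 36.8 ± 3.13 to 45.96 ± 4.54 FPKM, and edgeR called 1 of them. Calls in that list ran from 1 without each of 4 libraries to 2 without Con 3 or Van 1. Of 32 genes of folding in the endoplasmic reticulum, 9 rose and Ern1, the sensor IRE1, fell from 23.01 ± 3.33 to 17.2 ± 1.258 FPKM. The ones that rose included Hsp90b1 (from 128 ± 8.71 to 165 ± 16.8 FPKM), Pdia6 (from 50.2 ± 3.42 to 67.8 ± 9.48 FPKM), Pdia4 and Hyou1. Van 2 was the highest library for each of these 4 genes, and edgeR called no member of the list. When 1 library was left out, calls in it ran from 3 without Van 2 to 12 without Van 1, those in the chaperonin list from 2 without Van 2 or Van 3 to 5 without Van 1 and those among J-domain proteins from 3 without each of 3 libraries to 6 without Con 1 or Van 1. Dnajb1, Dnajb4, Cct6a, Cct8, Hspe1, Pdia4 and Hyou1 were no longer called in at least 1 of those 6 fits.

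Hspd1 and Hspe1 are neighbours that are read in opposite directions from a shared promoter, so the same bases are upstream of both. A heat shock element was searched in promoter windows of 250 bases before to 50 bases after the RefSeq start (GRCm38.p6), as the units GAA, TTC and GAA with 2 bases of any kind between neighbouring units, on both strands. The shared region is printed on each gene's own strand, with 2 overlapping matches in capitals.
Hspd1 (chr1:55088029-55088106, minus strand): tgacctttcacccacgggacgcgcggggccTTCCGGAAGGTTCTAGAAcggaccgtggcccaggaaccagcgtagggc
Hspe1 (chr1:55088029-55088106, plus strand): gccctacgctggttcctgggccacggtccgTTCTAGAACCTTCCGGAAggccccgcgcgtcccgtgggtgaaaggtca
Windows were found for 7918 of the genes. A heat shock element stood in 46 of them (0.581%), in 5 of 382 higher genes (1.31%) and in 1 of 329 lower genes (0.304%). Of the 24 called chaperone and co-chaperone genes, 19 had a window and 4 held a match. The share among chaperone genes that were not called was not computed.

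Glucocorticoid receptor targets, which share Fkbp5 with these genes, were higher where they were called. The receptor is a steroid-activated transcription factor, and the list was chosen for genes it is known to induce. Of 20 members, 7 rose and none fell, 2 of them by edgeR, with a median log2 fold change of 0.25. Fkbp5 (GRCm38 chromosome 17, 28399094 to 28517527), an immunophilin that lowers the hormone affinity of the receptor, showed the largest rise of all called genes. It was at 3.79, 5.64 and 3.85 FPKM in Con and 25.2, 26.7 and 43.8 FPKM in Van. The lowest Van library was more than 4 times the highest Con library, and the change was 7.16-fold, with 2.84 ± 0.34 (SE) on the log2 scale and an adjusted p in DESeq2 of 3.26e-14. Van 3 stood above Van 1 and Van 2, and the call held without it. Klf9, a receptor target in many tissues, was at 12.6, 13.5 and 14.6 FPKM in Con and 24.7, 22.2 and 25.6 FPKM in Van, with a DESeq2 adjusted p of 1.01e-16. Zbtb16, which encodes PLZF, was at 5.95, 7.096 and 7.42 FPKM in Con and 13.3, 9.86 and 8.64 FPKM in Van. Its groups did not overlap, but edgeR did not call it, with an adjusted p of 0.0848. Tsc22d3, which encodes the leucine zipper protein GILZ, rose from 133 ± 15.1 to 174 ± 9.86 FPKM, and the clock gene Per1 from 91.5 ± 5.396 to 111 ± 13.5 FPKM, with DESeq2 adjusted p of 0.00183 and 0.0487. The receptor gene Nr3c1 was at 28.4 ± 1.02 FPKM in Con and 25.9 ± 1.095 FPKM in Van and was not called, nor were the targets Sgk1 and Dusp1, at log2 fold changes of 0.20 and -0.01. After correction of each library for GC content 5 members were called. Without 1 library or another, Per1 was not called.

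Clock, Krüppel-like and immediate early genes made up the rest of the inducible regulators. Among 16 core clock genes the repressors Cry1 and Per1 rose and the output gene Dbp fell. Cry1 was at 4.41, 4.42 and 3.65 FPKM in Con and 5.87, 6.57 and 6.64 FPKM in Van, with no overlap, while Dbp was at 2.42, 3.498 and 3.77 FPKM in Con and 2.15, 1.84 and 1.66 FPKM in Van; 18% of the exon sequence of Dbp overlaps Sphk2 on the opposite strand. The hour at which mice were killed is not given in the sources used here. Of 15 Krüppel-like and SP factors, 6 rose and 1 (Sp4, -0.52) fell. Klf13 was at 97.6, 92.02 and 93.1 FPKM in Con and 127, 128 and 126 FPKM in Van, a tight pair of groups, and Klf15 and Klf2 had log2 fold changes of 0.78 and 0.32. Of 33 immediate early genes, 6 rose (Ier2, Jund, Klf2, Klf4, Klf6 and Rhob, between 0.23 and 0.35), none by edgeR, and the groups overlapped for Klf4, Klf6 and Rhob. Calls among immediate early genes ran from 0 without Van 2 to 7 without Con 3, and 1 was left after correction for GC content. Calls among Krüppel-like factors ran from 3 without Van 2 to 6 without Con 3, and those among clock genes from 1 without each of 3 libraries to 4 without Con 1. Fos and Egr1, early genes that handling of cells often induces, were not called, at 856 ± 286 FPKM in Con and 834 ± 161 FPKM in Van for Fos and 51.2 ± 15.3 FPKM in Con and 45.6 ± 3.46 FPKM in Van for Egr1. Of 14 genes known to rise when tissue is dissociated, 3 were higher, namely Hsp90aa1, Ier2 and Dnajb1, with a median log2 fold change of 0.10 over the list, and edgeR called 1 of them. Calls in that list ran from 1 without Van 2 to 4 without Con 1 or Con 3. The part of handling in the chaperone values was not tested. The calls of Per1, Dbp, Klf15, Klf2, Ier2, Jund, Klf4, Klf6, Rhob and Dnajb1 were lost in at least 1 fit without a library.

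**Figure D2:**
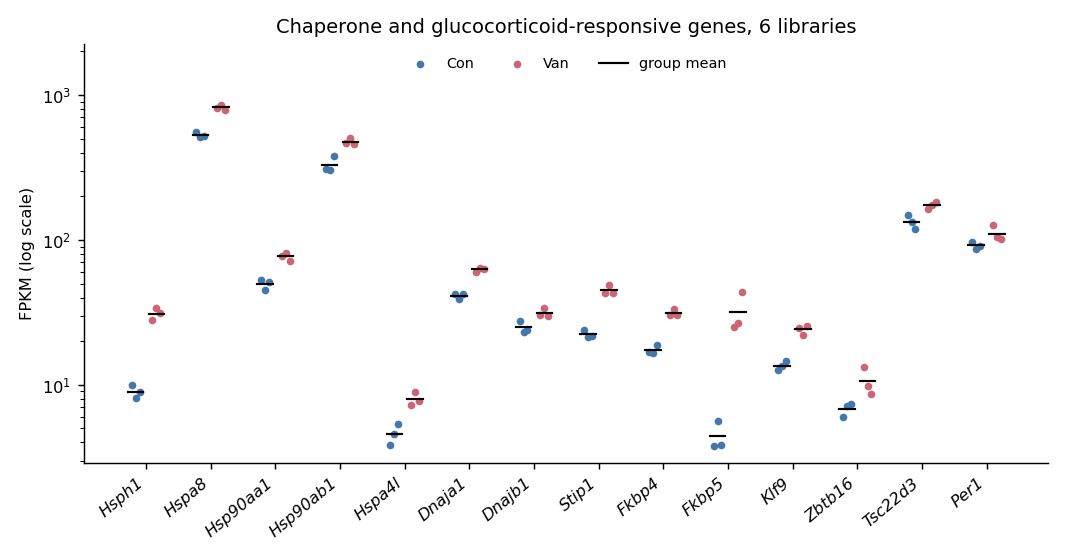
FPKM on a log axis for 14 chaperone and glucocorticoid-responsive genes (horizontal axis), with 1 point per library, Con in blue and Van in red, and a black bar at each group mean. The groups are separate for all 14 genes shown, and Fkbp5 has the widest gap, from 4.42 FPKM in Con to 31.9 FPKM in Van.

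Interferon-stimulated genes were the counterpart among the lower genes. These genes are switched on when cells sense interferon, and many encode proteins that block viral replication. Of 57 members, 19 fell and none rose, and the median log2 fold change was -0.21, while 6 of the 57 had a positive value. The edgeR test called 7 of them, and calls ran from 10 without Van 2 to 19 without Con 1 in the fits that left out 1 library. Ifit2 (GRCm38 chromosome 19, 34550694 to 34576419), which binds viral RNA, was at 13.3, 11.3 and 13.98 FPKM in Con and 8.76, 7.62 and 6.81 FPKM in Van. Every Van library lay below every Con library, with -0.75 ± 0.12 (SE) on the log2 scale and an adjusted p in DESeq2 of 1.11e-07. Ifit3, its neighbour, was at 24.99, 28.5 and 30.4 FPKM in Con and 19.4, 19.5 and 16.3 FPKM in Van, and Ifit3b, a near copy that can exchange reads with it, fell from 8.09 ± 0.407 to 5.78 ± 0.286 FPKM. The GTPase gene Mx1 was at 25.7, 28.9 and 29.6 FPKM in Con and 19.7, 20.4 and 22.1 FPKM in Van, again without overlap. The RNA sensor Ifih1 (MDA5) fell from 22.9 ± 1.08 to 18.05 ± 0.893 FPKM, the viperin gene Rsad2 from 13.7 ± 2.05 to 9.57 ± 1.000 FPKM, and the RNA-activated synthetase Oas3 from 30.3 ± 2.13 to 25.1 ± 0.903 FPKM. Phf11b was at 41.3, 41.7 and 53.9 FPKM in Con and 32.7, 30.2 and 25.5 FPKM in Van, and its neighbours Phf11d and Phf11a, the last on no list, had log2 fold changes of -0.56 and -0.74. Zbp1, a sensor of Z-form nucleic acid, fell from 78.3 ± 12.7 to 55.7 ± 5.56 FPKM. Smaller steps were seen in Stat2 (-0.27), Irf7 (-0.19), which amplifies the response, and Ifitm3 (-0.19), the most abundant of the called members at 1302 ± 47.4 FPKM in Con and 1147 ± 43.7 FPKM in Van. Leaving out 1 library ended the calls of Oas3, Phf11d, Zbp1, Stat2, Irf7 and Ifitm3 at least once.

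Several well-known members were not called. Isg15 was at 25.02 ± 1.46 FPKM in Con and 21.6 ± 3.801 FPKM in Van, Irf9 at 37.8 ± 0.866 FPKM in Con and 38.9 ± 1.77 FPKM in Van, Oas2 at 23.98 ± 2.75 FPKM in Con and 23.7 ± 1.897 FPKM in Van and Bst2 at 60.1 ± 5.91 FPKM in Con and 63.3 ± 4.49 FPKM in Van. Ifitm6, a myeloid relative of Ifitm3 that was on no list and was chosen after its values were seen, was at 343, 353 and 361 FPKM in Con and 233, 246 and 236 FPKM in Van. Its DESeq2 adjusted p, 1.19e-22, was the lowest of the 472 genes lower in Van.

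The PYHIN family was lower almost throughout. These proteins carry a pyrin and a HIN domain, and several bind DNA in the cytosol or nucleus. Of 11 members, 10 fell, 8 also by edgeR, and the median log2 fold change was -0.43. A run of 6 called members lies side by side at chr1:173747293-174031810 (Ifi204, Gm16340, Mndal, Mnda, Ifi203 and Ifi205). Ifi203 was at 73.7, 80.7 and 80.4 FPKM in Con and 45.9, 54.3 and 55.96 FPKM in Van, with a DESeq2 adjusted p of 5.48e-11. Mndal was at 131, 125 and 128 FPKM in Con and 91.3, 97.9 and 100.4 FPKM in Van, and Ifi205 fell from 42.4 ± 0.765 to 31.7 ± 3.15 FPKM. Pydc3 and Pydc4, which hold only the pyrin part, fell from 3.23 ± 0.201 to 1.97 ± 0.0765 FPKM and from 46.2 ± 2.05 to 34.8 ± 1.98 FPKM. The groups did not overlap for any of the 10, which also held for 948 of all 975 called genes. The PYHIN genes are close copies of each other, so their reads can be exchanged and the 10 values are not separate observations. Aim2, which assembles an inflammasome on DNA, fell from 55.6 ± 5.28 to 41.4 ± 2.15 FPKM. Gm16340 was no longer called in at least 1 of those 6 fits.

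Guanylate-binding proteins and immunity-related GTPases, which attack the vacuoles of intracellular microbes, centred on a median log2 fold change of -0.43 over 18 members, 17 of them negative. Only 4 were called, all lower. Gbp3 was at 34.1, 29.01 and 30.98 FPKM in Con and 22.4, 22.6 and 22.99 FPKM in Van, and Gbp9 fell from 26.6 ± 2.54 to 20.2 ± 0.722 FPKM. Gbp7 and Gbp6 had DESeq2 adjusted p of 0.0202 and 0.0188, and the symbol Gbp6 stands on 2 overlapping gene models, with groups that overlapped. Among 19 genes of cytosolic nucleic acid sensing, Ddx60, Ifih1, Zbp1 and Samhd1 fell and the adaptor Mavs rose. Ddx60 was at 3.36, 3.79 and 4.03 FPKM in Con and 2.36, 2.24 and 1.89 FPKM in Van, a 1.60-fold fall. Calls ran from 2 without each of 4 libraries to 6 without Con 2 in the first list and from 2 without Van 2 to 7 without Con 1 in the second. Without 1 library or another, Gbp7, Gbp6, Zbp1, Samhd1 and Mavs were not called.

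The interferon-stimulated response element, searched as GAAA repeated after any 2 bases on both strands of the same windows, was found in 34 of 329 lower genes (10.3%), in 8 of 382 higher genes (2.09%) and in 326 of all 7918 genes (4.12%). Of the 33 lower interferon, PYHIN and guanylate-binding genes, 21 had a window and 13 held the element. The share among members of these lists that were not called was not computed. This figure therefore cannot tell the fall apart from list membership. The regions printed here were chosen because they lie just upstream of genes described above, and the capitals mark the element.
Ifit3 (chr19:34583343-34583446, plus strand): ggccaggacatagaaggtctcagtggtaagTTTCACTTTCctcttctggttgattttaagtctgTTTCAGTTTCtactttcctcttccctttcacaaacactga
Rsad2 (chr12:26456533-26456602, minus strand): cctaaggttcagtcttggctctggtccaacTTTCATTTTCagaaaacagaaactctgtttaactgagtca
Oas3 (chr5:120777695-120777764, minus strand): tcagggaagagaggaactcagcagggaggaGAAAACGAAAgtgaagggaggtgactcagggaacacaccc
Phf11a (chr14:59297523-59297581, minus strand): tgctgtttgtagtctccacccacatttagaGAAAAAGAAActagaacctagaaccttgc
Phf11b (chr14:59341341-59341410, minus strand): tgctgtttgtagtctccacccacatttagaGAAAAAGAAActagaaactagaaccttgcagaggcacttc
Ifi203 (chr1:173942493-173942557, minus strand): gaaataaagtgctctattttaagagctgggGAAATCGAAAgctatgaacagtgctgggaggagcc
Mndal (chr1:173880188-173880253, minus strand): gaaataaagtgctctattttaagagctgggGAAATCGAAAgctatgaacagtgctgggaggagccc
Ifi205 (chr1:174031850-174031919, minus strand): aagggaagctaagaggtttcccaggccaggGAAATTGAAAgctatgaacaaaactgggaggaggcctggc
Gbp3 (chr3:142559969-142560043, plus strand): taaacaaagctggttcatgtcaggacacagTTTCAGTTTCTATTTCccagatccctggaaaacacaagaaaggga
Gbp7 (chr3:142530253-142530322, plus strand): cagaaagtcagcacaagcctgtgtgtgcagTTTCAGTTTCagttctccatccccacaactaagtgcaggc
Ddx60 (chr8:61928004-61928086, plus strand): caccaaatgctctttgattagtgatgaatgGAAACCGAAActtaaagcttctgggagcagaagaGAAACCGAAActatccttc
The Phf11a and Phf11b regions are near copies, as are those of Ifi203 and Mndal, so their matches are not independent. The other motifs searched were the cyclic AMP response element TGACGTCA (18 higher genes or 4.71%, 5 lower genes or 1.52%, 3.74% of all), the antioxidant response element as TGAC and GCA with 3 bases between them (3.93%, 3.95% and 3.30%), the glucocorticoid response element as ACA and TGT with 3 bases between them followed by any base and C (3.14%, 3.04% and 2.32%), and the amino acid response element TGATGCAA (0.524%, 0.304% and 0.758%). The first 4 letters of the cyclic AMP and antioxidant elements are the same, so a stretch can match both. A match to letters is a description of the window and not a binding site.

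**Figure D3:**
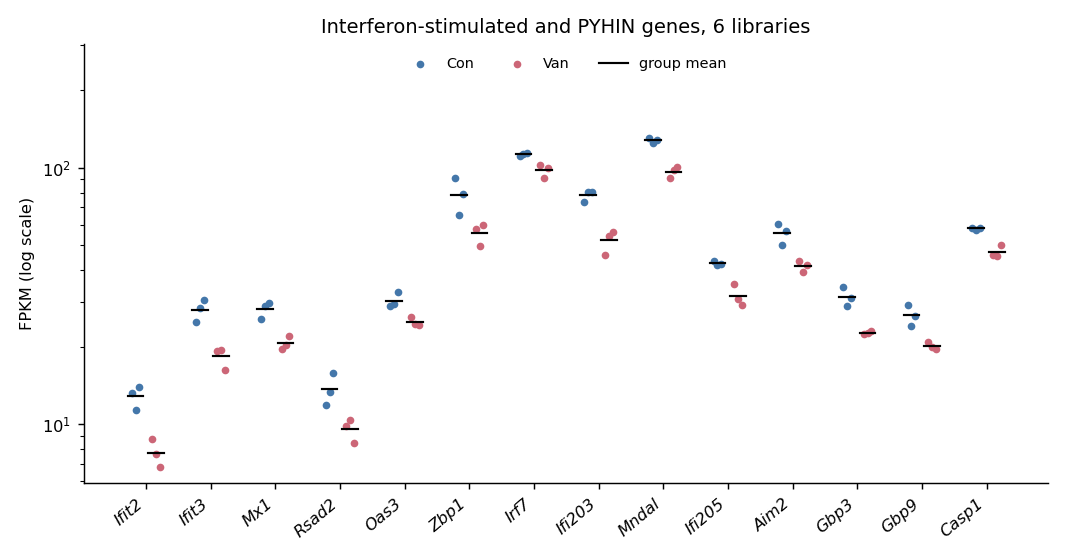
FPKM on a log axis for 14 interferon-stimulated, PYHIN and inflammasome genes (horizontal axis), with 1 point per library, Con in blue and Van in red, and a black bar at each group mean. Every Van library lies below every Con library for each gene shown, and the fitted falls lie between 1.14-fold for Irf7 and 1.68-fold for Ifit2.

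Other innate sensors moved on a smaller scale. Of 36 Toll-like receptors, partners and adaptors, 5 fell and 2 rose. After correction for GC content 4 were called lower and 4 higher. Tlr9, which binds bacterial DNA in endosomes, was at 32.2, 27.9 and 29.00 FPKM in Con and 23.3, 24.6 and 23.2 FPKM in Van, and Unc93b1, which carries endosomal receptors to their compartment, fell from 316 ± 17.6 to 268 ± 17.6 FPKM. Cd180 and its partner Ly86, which temper responses to lipopolysaccharide, had log2 fold changes of -0.74 and -0.28, and Tlr1 of -0.32. Cd14, the co-receptor for lipopolysaccharide, was at 147, 161 and 145 FPKM in Con and 191, 173 and 193 FPKM in Van, higher in each Van library. Hsp90b1, the chaperone of Toll-like receptors counted above, was the other that rose. Tlr2, Tlr4, Tlr6 and Tlr7 were not called, at log2 fold changes of 0.12, -0.12, -0.07 and 0.11. Of 30 genes of inflammasomes and pyroptosis, 6 fell and 2 rose. Casp1, which cleaves interleukin-1β and gasdermin D, was at 58.4, 57.4 and 58.2 FPKM in Con and 45.6, 45.1 and 50.2 FPKM in Van, Nlrp1b fell from 7.63 ± 0.834 to 5.43 ± 0.211 FPKM, and Dfna5, which encodes gasdermin E, fell from 3.21 ± 0.0835 to 2.13 ± 0.102 FPKM. Il1a fell from 4.03 ± 0.431 to 2.57 ± 0.309 FPKM, and the muramyl dipeptide sensor Nod2 from 12.9 ± 2.299 to 9.72 ± 0.821 FPKM. Slc15a4 and Nlrx1 rose by log2 values of 0.26 and 0.27. The count for inflammasome genes ran from 4 without Van 2 to 8 without Van 1. Of all these genes edgeR called 4, namely Cd180, Nlrp1b, Casp1 and Dfna5. The calls of Ly86, Tlr1, Cd14, Nod2, Slc15a4 and Nlrx1 were lost in at least 1 fit without a library.

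Of 38 listed negative regulators of Toll-like receptor signalling, 1 rose and 6 fell (Aim2, Irf4, Rhoh, Cyld, Pdlim2 and Usp18), while 19 members had a positive and 19 a negative log2 fold change. The study picked part of that list from these libraries, so its direction is not independent evidence, and calls in it ran from 3 without Van 2 to 8 without Van 1. Leaving out 1 library ended the calls of Cyld, Pdlim2 and Usp18 at least once.

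C-type lectin receptors split by gene cluster. Of 24 members, 5 rose and 4 fell. The 5 lie within 1 stretch of chromosome 6, and 3 of them are direct neighbours at chr6:123229843-123289870, while the 4 lower genes lie further along, between Clec2i (chr6:128887588-128898167) and Clec7a (chr6:129461591-129472779). Clec4d (GRCm38 chromosome 6, 123262111 to 123275265), a receptor for mycobacterial glycolipid, was at 7.27, 7.599 and 7.12 FPKM in Con and 15.9, 17.9 and 17.5 FPKM in Van. No library overlapped, and the change was 2.31-fold, with 1.21 ± 0.10 (SE) on the log2 scale and an adjusted p in DESeq2 of 1.83e-28. Clec4e, which encodes Mincle, was at 41.4, 37.9 and 46.4 FPKM in Con and 76.5, 65.9 and 59.2 FPKM in Van, and Clec4n, which encodes Dectin-2, rose from 55.1 ± 6.59 to 76.8 ± 9.42 FPKM. Clec4a3 and Clec4a1 rose by log2 values of 0.29 and 0.24, and close copies in this cluster can exchange reads. Clec7a, the β-glucan receptor Dectin-1, fell from 246 ± 24.8 to 197 ± 14.2 FPKM, Clec12a from 85.9 ± 1.39 to 69.6 ± 3.59 FPKM and Clec2i from 36.4 ± 2.29 to 28.3 ± 1.72 FPKM. Syk, the kinase downstream of Mincle and of Fc receptors, was at 113, 121 and 119 FPKM in Con and 162, 154 and 142 FPKM in Van. Among 21 genes of Fc receptor signalling, the inhibitory receptor Fcgr2b and the activating Fcgr4 also rose, while the high-affinity receptor Fcgr1 fell from 24.5 ± 0.699 to 19.7 ± 0.835 FPKM, with calls in that list from 3 without each of 3 libraries to 4 without each of 3 libraries. Clec7a, Clec4a3, Clec4a1, Fcgr2b and Fcgr4 were no longer called in at least 1 of those 6 fits.

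Receptors for chemotactic stimuli went in both directions. Of 33 members, C5ar1, Fpr1 and Fpr2 rose, and P2ry12, P2ry13, Lpar6 and Gpr18 fell. C5ar1, the receptor for the complement fragment C5a, was at 13.2, 15.4 and 13.4 FPKM in Con and 25.3, 21.3 and 18.99 FPKM in Van. The formyl peptide receptors Fpr1 and Fpr2, which sense peptides of bacteria and mitochondria, rose from 9.05 ± 0.517 to 13.3 ± 1.91 FPKM and from 23.1 ± 3.98 to 33.5 ± 3.36 FPKM. The purinergic receptor genes P2ry12 and P2ry13 are neighbours, and both fell, by log2 values of -0.48 and -0.33. Of 21 chemokines and chemokine receptors, only Ccr2 was called. Ccr2, which lets classical monocytes leave the bone marrow, was at 173, 163 and 159 FPKM in Con and 70.4, 93.02 and 98.2 FPKM in Van. All 3 Van libraries were well below the 3 Con libraries, with -0.83 ± 0.13 (SE) on the log2 scale and an adjusted p in DESeq2 of 1.27e-08. Among other markers of classical monocytes, Ly6c2 was at 398, 414 and 377 FPKM in Con and 268, 293 and 388 FPKM in Van and was not called, with a DESeq2 adjusted p of 0.06. Lyz2 was at 8013 ± 332 FPKM in Con and 7514 ± 959.6 FPKM in Van and was not called, and Vcan, which encodes versican, rose from 4.22 ± 1.41 to 11.7 ± 3.96 FPKM. Among 16 complement genes, C1qb, C2 and Cfp rose besides C5ar1, and Itgam (CD11b) and C1ra fell. Calls ran from 3 without Con 3 or Van 2 to 7 without Van 1 among chemotactic receptors, from 1 without each of 4 libraries to 4 without Van 1 among chemokine genes and from 2 without each of 3 libraries to 5 without Van 1 among complement genes. The edgeR test called 1 gene in each of these lists. Without 1 library or another, Fpr1, P2ry12, P2ry13, Lpar6, Gpr18, C1qb, C2, Cfp, Itgam and C1ra were not called.

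Genes of MHC class II presentation were mostly lower where they were called. Of 20 genes, 5 fell and 1 rose, the median log2 fold change was -0.31, and edgeR called none. Calls ran from 2 without each of 3 libraries to 9 without Van 1. H2-Aa was at 943, 711 and 760.3 FPKM in Con and 710.2, 539.8 and 563 FPKM in Van, so the groups were separate by little, with a DESeq2 adjusted p of 0.0158. H2-Eb1 and H2-Ab1, its neighbours, had log2 fold changes of -0.34 and -0.33, and their groups overlapped. Rfx5, a factor that binds class II promoters, fell from 7.003 ± 0.123 to 5.49 ± 0.369 FPKM, and the costimulatory receptor Cd40 from 13.2 ± 1.16 to 9.03 ± 0.121 FPKM. Cd86, another costimulatory molecule, rose from 31.6 ± 2.13 to 38.6 ± 3.35 FPKM. Some dendritic cell markers were lower as well. Of 12 such markers that averaged at least 1 FPKM, among them H2-Ab1, 4 were lower and none was higher, edgeR called 2, and calls ran from 2 without Con 1 or Van 3 to 4 without Con 2. All 14 markers listed summed to 940 to 1185 FPKM in Con and 852 to 1017 FPKM in Van. Most of that sum came from H2-Ab1 and Sirpa, which averaged 571 and 293 FPKM, and Sirpa had a log2 fold change of 0.02. Clec9a, the marker of the cross-presenting type, was at 3.03, 2.23 and 2.599 FPKM in Con and 1.83, 1.11 and 1.22 FPKM in Van, and Batf3, its transcription factor, fell from 16.7 ± 0.246 to 12.6 ± 1.42 FPKM. The part of dendritic cell RNA in the class II values was not tested. The calls of H2-Aa, H2-Eb1, H2-Ab1, Rfx5, Cd86 and Batf3 were lost in at least 1 fit without a library.

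Cyclic AMP signalling held Pde3b, which had the lowest DESeq2 adjusted p after Hsph1, among calls in both directions. Of 36 phosphodiesterases, cyclases and protein kinase A genes, 5 rose and 5 fell. Pde3b (GRCm38 chromosome 7, 114415281 to 114539251), which breaks down cyclic AMP and is inhibited by cyclic GMP, was at 1.99, 2.19 and 1.98 FPKM in Con and 7.64, 7.202 and 6.93 FPKM in Van. Van libraries were 3.53-fold higher, with 1.82 ± 0.10 (SE) on the log2 scale and an adjusted p in DESeq2 of 4.5e-78. Pde8a, a high-affinity enzyme for cyclic AMP, was at 5.62, 5.94 and 5.87 FPKM in Con and 8.58, 8.88 and 8.13 FPKM in Van, whereas the related Pde8b and Pde7b fell from 2.48 ± 0.107 to 1.79 ± 0.2603 FPKM and from 3.53 ± 0.241 to 2.53 ± 0.142 FPKM. Crem, a cyclic AMP-responsive repressor, was at 6.41, 5.34 and 4.45 FPKM in Con and 10.2, 9.94 and 9.63 FPKM in Van, and the regulatory subunit Prkar2a rose from 7.75 ± 0.316 to 9.99 ± 0.522 FPKM. The adrenergic receptor gene Adrb1, whose product raises cyclic AMP, rose from 7.45 ± 0.967 to 11.8 ± 2.74 FPKM, and the histamine receptor gene Hrh2 fell from 1.39 ± 0.01096 to 0.809 ± 0.2605 FPKM. These receptors were chosen after values were seen, and Hrh2 met the rule of 1 FPKM through Con. Calls in the cyclic AMP list ran from 6 without each of 3 libraries to 10 without Con 1. A cyclic AMP response element lies upstream of Rcan1, the calcineurin inhibitor, which rose from 13.8 ± 0.831 to 20.1 ± 3.39 FPKM; its region is printed with the element in capitals.
Rcan1 (chr16:92400216-92400283, minus strand): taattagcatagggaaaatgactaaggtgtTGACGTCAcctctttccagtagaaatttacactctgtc
Leaving out 1 library ended the calls of Pde8b, Adrb1 and Hrh2 at least once.

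In a list of 56 genes of phosphoinositide and protein kinase C signalling, 2 subunits of phosphoinositide 3-kinase rose and 6 other genes fell. The edgeR test called 2 members higher and 0 lower. Pik3r5, the p101 subunit that couples the kinase to G proteins, was at 41.9, 43.2 and 40.8 FPKM in Con and 73.3, 68.5 and 72.9 FPKM in Van, with no overlap and a DESeq2 adjusted p of 9.06e-31. Pik3r1, the p85α subunit, rose from 12.2 ± 0.656 to 15.8 ± 0.602 FPKM. The inositol trisphosphate receptor Itpr1 had a log2 fold change of -0.27, the diacylglycerol kinase Dgkz of -0.35 and the adaptor Pik3ap1 of -0.41. Among 49 ARF GTPases and regulators, 4 rose and 2 fell, and after correction for GC content 2 were called higher and 0 lower. In that list Cyth1 rose from 34.3 ± 1.104 to 51.6 ± 1.64 FPKM and the related Cyth3 had -0.41, a call that ended under the GC correction. Of 55 MAP kinases and phosphatases, 5 rose and 3 fell, with Map3k6 at 0.855, 1.32 and 0.758 FPKM in Con and 1.55, 2.48 and 3.43 FPKM in Van. Map3k6 averaged under 1 FPKM in Con and met the rule of 1 FPKM through Van. Calls in these 3 lists ran from 2 without Con 3 to 8 without Van 1, from 2 without Con 3 or Van 3 to 6 without Con 1 or Van 1 and from 3 without Van 2 to 9 without Van 1. The shares called were 14.3%, 12.2% and 14.5%, against 8.35% of all genes. The edgeR test called 2, 2 and 1 genes in them, all higher. Itpr1, Dgkz, Pik3ap1 and Cyth3 were no longer called in at least 1 of those 6 fits.

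Genes of the cytoskeleton and of vesicle traffic were mostly lower where they were called. Fam65b was at 16.4, 14.5 and 18.3 FPKM in Con and 8.38, 7.82 and 8.62 FPKM in Van, a 1.98-fold fall. Fgd4, an exchange factor for CDC42, fell from 18.4 ± 1.17 to 12.5 ± 0.606 FPKM, and the leukocyte exchange factors Dock2 and Dock10 fell from 95.3 ± 5.17 to 79.1 ± 1.78 FPKM and from 70.3 ± 2.07 to 57.1 ± 0.958 FPKM. Of 59 actin regulators, 6 fell and only Ezr, which links actin to the membrane, rose, a share of 11.9% against 8.35% of all genes. Of 83 Rab GTPases and their regulators, 11 fell and 2 rose, and calls ran from 7 without Con 3 or Van 2 to 12 without Con 1 or Van 1. Those among actin regulators ran from 3 without Van 2 to 8 without Van 1. Rab11fip4, an effector of recycling endosomes, was at 1.96, 1.91 and 1.98 FPKM in Con and 1.12, 1.44 and 1.04 FPKM in Van, and Rabgap1l and Rin2 fell from 10.9 ± 0.791 to 7.69 ± 1.18 FPKM and from 15.8 ± 1.94 to 12.7 ± 0.799 FPKM. Of 48 SNAREs and exocytosis genes, 4 fell (Exoc2, Exoc6, Stx17 and Vti1a) and none rose, a share near the 8.35% of all genes. Among 33 integrins and adhesion molecules, 4 rose, 2 of them also by edgeR, and 6 fell, none by edgeR. Calls in that list ran from 3 without Van 2 to 12 without Van 1. The 4 included F11r and Pecam1, with F11r, a junctional adhesion molecule, at 4.36, 4.31 and 4.02 FPKM in Con and 6.44, 7.05 and 6.47 FPKM in Van and Pecam1 at 16.3, 12.6 and 15.8 FPKM in Con and 44.04, 31.2 and 24.2 FPKM in Van. Van 1 was the highest library for Pecam1, which endothelial cells also express. Of the 3 stromal and endothelial markers, of 12 listed, that averaged at least 1 FPKM, Pecam1 alone was called. All 3 had a positive log2 fold change, and Stab2 averaged 8.35 FPKM. Of endothelial markers under 1 FPKM, Kdr had a log2 fold change of 0.77 and Cdh5 of -0.42, and Emcn was at 0 FPKM in each library. Without 1 library or another, Ezr and Stx17 were not called.

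Enzymes of lipid metabolism were called in both directions. Of 51 genes of fatty acid oxidation and lipid droplets, 6 rose and 3 fell. Dgat2, which makes triacylglycerol, was at 10.3, 8.16 and 9.05 FPKM in Con and 15.7, 13.8 and 16.4 FPKM in Van, and Pnpla2, the lipase that releases fatty acids from droplets, rose from 43.3 ± 3.54 to 61.6 ± 2.32 FPKM. Lipa, the lysosomal acid lipase, fell from 96.8 ± 12.3 to 75.5 ± 5.401 FPKM, and the desaturase Scd1 from 1.66 ± 0.533 to 0.895 ± 0.232 FPKM. In sphingolipid and eicosanoid metabolism 5 of 41 rose and 3 fell. Pla2g7, which breaks down platelet-activating factor, was at 132, 164 and 146 FPKM in Con and 204, 209 and 216 FPKM in Van, and Ugcg and Sgms1, which make glucosylceramide and sphingomyelin, rose from 22.2 ± 1.91 to 30.4 ± 2.798 FPKM and from 36.97 ± 0.494 to 50.3 ± 8.65 FPKM. Cers6, a ceramide synthase, fell from 39.7 ± 1.08 to 30.4 ± 1.32 FPKM, and the thromboxane synthase Tbxas1 from 21.6 ± 2.004 to 15.9 ± 1.77 FPKM. Calls in the fatty acid list ran from 4 without Con 3 to 10 without Con 2. The calls of Lipa and Scd1 were lost in at least 1 fit without a library. Scd1 averaged under 1 FPKM in Van and met the rule of 1 FPKM through Con.

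Further enzyme groups were assembled after values were seen, so their counts are descriptions. Of 18 enzymes of sialic acid synthesis and transfer, 5 fell and none rose. Cmah, which makes the form of sialic acid that mice have and humans lack, was at 2.04, 1.904 and 2.47 FPKM in Con and 1.22, 1.08 and 0.899 FPKM in Van, with a DESeq2 adjusted p of 2.45e-09. The transferases St3gal2 and St8sia4 fell from 14.5 ± 0.556 to 10.4 ± 0.375 FPKM and from 30.9 ± 1.000 to 23.5 ± 1.66 FPKM. Of 6 enzymes of the kynurenine route, which degrades tryptophan, Kmo, Haao and Kynu fell, by log2 values of -0.66, -0.39 and -0.61. Of 6 collagen prolyl and lysyl hydroxylases, 4 rose, with Plod1 at 11.5, 11.9 and 10.97 FPKM in Con and 15.1, 17.4 and 15.8 FPKM in Van and P4ha1 at 20.3 ± 1.06 FPKM in Con and 28.4 ± 1.96 FPKM in Van. Calls ran from 3 without each of 3 libraries to 8 without Van 1, from 2 without each of 5 libraries to 3 without Van 1 and from 2 without Van 2 to 4 without Con 1 or Van 1 in these groups. Kmo also counts among the dendritic cell markers above. Leaving out 1 library ended the call of Kynu in 5 of the 6 fits.

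Transcription factors of the myeloid lineage were called in equal numbers, 8 higher and 8 lower of 50, and calls ran from 7 without Con 3 to 16 without Van 1. The edgeR test called 2 higher and 1 lower. Rfx2 rose from 12.4 ± 0.554 to 20.3 ± 1.87 FPKM, Maf, a macrophage factor, from 13.2 ± 1.39 to 19.2 ± 2.16 FPKM, and Cebpa, which commits progenitors to the myeloid line, from 45.3 ± 2.15 to 64.2 ± 11.7 FPKM. Irf4, a factor of dendritic cells and alternatively activated macrophages, fell from 6.91 ± 0.567 to 4.72 ± 0.509 FPKM, Bach2 from 1.48 ± 0.0975 to 0.967 ± 0.301 FPKM and Ikzf3 from 13.8 ± 2.98 to 8.77 ± 2.104 FPKM. Jdp2, an AP-1 repressor on no list that was chosen after its values were seen, was at 8.195, 10.03 and 10.4 FPKM in Con and 22.4, 19.1 and 20.4 FPKM in Van. Among 10 genes of the interleukin-6 family, also assembled after values were seen, the receptor gene Lifr was at 4.02, 4.17 and 4.85 FPKM in Con and 10.5, 9.48 and 7.996 FPKM in Van, with no overlap. Clcf1, a ligand, rose from 4.66 ± 0.443 to 7.54 ± 0.7899 FPKM, and the ligand gene Lif fell from 2.49 ± 0.511 to 1.82 ± 0.199 FPKM. In the nuclear lamina, Lmna, which stiffens the nucleus, was at 3.39, 2.35 and 3.46 FPKM in Con and 4.91, 6.99 and 7.78 FPKM in Van, and Lmnb2 and Syne2 rose by log2 values of 0.57 and 0.42, in a list of 17 also made after values were seen. Among 42 regulators of apoptosis, 6 fell and 1 rose, with calls from 3 without Con 2 or Van 2 to 5 without each of 4 libraries. Bcl2, which keeps cells alive, was at 14.8, 13.03 and 16.9 FPKM in Con and 10.1, 6.83 and 7.504 FPKM in Van, and Mlkl, which carries out necroptosis, fell from 7.24 ± 0.483 to 5.12 ± 0.408 FPKM. Pmaip1, the pro-death gene Noxa, rose from 80.7 ± 7.21 to 104 ± 12.7 FPKM. Mst1r, the receptor RON for macrophage-stimulating protein, was at 0.913, 1.303 and 0.788 FPKM in Con and 2.41, 2.78 and 2.89 FPKM in Van, and Mrap, an accessory protein of the corticotropin receptor, at 1.63, 2.27 and 1.98 FPKM in Con and 4.05, 6.06 and 5.68 FPKM in Van. Bach2, Ikzf3 and Pmaip1 were no longer called in at least 1 of those 6 fits. Bach2 averaged under 1 FPKM in Van and met the rule of 1 FPKM through Con.

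Protein-coding genes of the mitochondrial genome were lower, while their nuclear partners held no call. Of 15 listed genes, ribosomal RNAs included, 13 fell and none rose, the median log2 fold change was -0.34, and edgeR called 7. Their summed FPKM was 21503, 23527 and 23126 in Con and 16803, 18095 and 19430 in Van. Each Van library was below each Con library, at 18109 ± 1314 against 22719 ± 1071. mt-Nd1, a complex I subunit, was at 1672, 1799 and 1747 FPKM in Con and 1275, 1305 and 1432 FPKM in Van, and mt-Cytb, of complex III, at 1748, 1969 and 1854 FPKM in Con and 1326, 1399 and 1548 FPKM in Van. The falls ran from -0.47 for mt-Nd6, which lies on the other strand, to -0.23 for mt-Nd3. The ribosomal RNA genes mt-Rnr1 and mt-Rnr2, which poly(A) selection captures poorly, were not called, at -0.22 and 0.02. Of 22 mitochondrial tRNA genes 2 fell, with a median log2 fold change of -0.02 over all 22, and 0 were called after correction for GC content. None of 78 nuclear genes of the respiratory chain and ATP synthase was called, and their sum was 4574 ± 30.4 FPKM in Con and 4544 ± 240.1 FPKM in Van. Cytosolic ribosomal protein genes, 82 with no call, summed to 38557 ± 496 and 38705 ± 893 FPKM. Mitochondrial transcripts are poor in GC. With counts corrected for GC content 11 of the 15 were called, and 8 with correction for GC and length, all lower. On chromosome 1, 7 copies of mitochondrial sequence at 24611535 to 24616197 fell as well, and they share reads with the mitochondrial genome, so they add no separate evidence. Without 1 library or another, mt-Nd3 was not called.

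**Figure D4:**
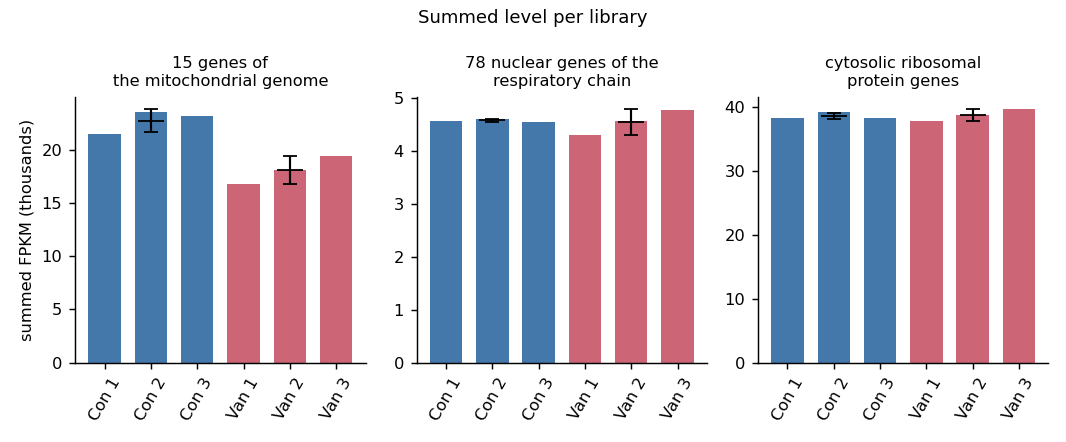
Summed FPKM, divided by 1000, for each of the 6 libraries (bars, Con in blue and Van in red), with the group mean and SD in black, for 15 genes of the mitochondrial genome, 78 nuclear respiratory chain genes and 82 cytosolic ribosomal protein genes. The mitochondrially encoded sum is lower in each Van library, and the other sums overlap between groups.

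Haemoglobin genes were among the largest rises, and they mark red blood cells and their precursors. Hbb-bs was at 35.1, 50.2 and 26.6 FPKM in Con and 129, 199 and 86.9 FPKM in Van and Hba-a1 at 41.4, 63.2 and 29.6 FPKM in Con and 134, 227 and 100.0 FPKM in Van. Every Van library was higher, and the Van libraries differed more than 2-fold among themselves. Alas2, the erythroid enzyme of heme synthesis, was at 0.536, 0.686 and 0.461 FPKM in Con and 2.45, 3.15 and 1.55 FPKM in Van, a 4.25-fold rise. It met the rule of 1 FPKM through Van alone. Of 8 erythroid markers that averaged at least 1 FPKM, 5 rose and none fell, and the 11 found in the files summed to 147, 211 and 107 FPKM in Con and 491, 784 and 352 FPKM in Van. Paralogous haemoglobin genes exchange reads. Markers of red pulp macrophages, which degrade red blood cells, were higher in 3 of 13 cases (Vcam1, C1qb and Itgad, at 0.46, 0.34 and 0.33), and summed to 1695 to 2039 FPKM in Con and 1978 to 2639 FPKM in Van. Calls among the macrophage markers ran from 1 without Con 1 or Van 2 to 4 without Van 1, and Van 2 had the highest sum for both lists. Of 34 genes of iron and heme handling, Alas2, Fth1 and Cpox rose and none fell, a share of 8.82% against 8.35% of all genes. Fth1, the ferritin heavy chain and the most abundant called gene of the nuclear genome that was higher, rose from 1925 ± 46.97 to 2262 ± 114 FPKM. The calls of Hba-a1, C1qb, Itgad and Cpox were lost in at least 1 fit without a library.

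T cell markers were low in level. All 14 of them summed to 19.3 to 26.0 FPKM in Con and 13.5 to 19.2 FPKM in Van, and of the 6 that averaged at least 1 FPKM Il7r was called lower. All 6 had a negative log2 fold change, with a median of -0.77, and 4 an unadjusted DESeq2 p under 0.05. DESeq2 gave an adjusted p for 3 of the 6, since its filter on low counts left out the others. The 13 NK cell markers summed to 14.5 to 21.5 FPKM in Con and 8.01 to 12.8 FPKM in Van, much of it from Klrk1, which encodes the receptor NKG2D and fell, at 13.7, 9.47 and 10.2 FPKM in Con and 7.45, 4.81 and 4.16 FPKM in Van. Of 7 platelet and megakaryocyte markers that averaged at least 1 FPKM, DESeq2 and edgeR called 0, all 7 log2 fold changes were negative with a median of -0.55, and 3 had an unadjusted DESeq2 p under 0.05. Without Con 2, 3 platelet markers were called, and without Van 1, 1 was. Ighm, the constant region of immunoglobulin M and on no list, was at 325, 378 and 381 FPKM in Con and 268, 255 and 241 FPKM in Van, and 130 immunoglobulin variable genes had a median log2 fold change of -0.28 with 1 of them called. The 12 B cell markers summed to 17.6 to 20.2 FPKM in Con and 14.6 to 16.6 FPKM in Van. Of the 3 that averaged at least 1 FPKM, DESeq2 and edgeR called 0, and 1 had an unadjusted DESeq2 p under 0.05. The 10 plasma cell markers summed to much more, 613 to 772 FPKM in Con and 566 to 725 FPKM in Van. Most of that came from Igkc, the constant region of the kappa light chain, which was not called, at 466 ± 60.7 FPKM in Con and 400.4 ± 58.4 FPKM in Van. Of the 8 plasma cell markers that averaged at least 1 FPKM, Sdc1, which encodes CD138, was the only one called and fell from 2.28 ± 0.578 to 1.36 ± 0.214 FPKM. Igha, the constant region of immunoglobulin A, lay the other way without overlap, at 28.1, 39.6 and 40.1 FPKM in Con and 78.2, 74.1 and 42.4 FPKM in Van, and was not called, with a DESeq2 adjusted p of 0.0541. The 16 neutrophil markers summed to 127 to 138 FPKM in Con and 124 to 159 FPKM in Van. Most of the neutrophil sum came from Csf3r, the receptor for granulocyte colony-stimulating factor, which monocytes also express. Of the 6 that averaged at least 1 FPKM, Csf3r alone was called and rose from 87.5 ± 0.845 to 104 ± 5.595 FPKM, and the defining marker Ly6g was at 0 FPKM in each library. Over the same 6, 3 log2 fold changes were positive and 3 negative, among them -1.10 for S100a9 and -0.56 for Padi4, neither of them called. Most markers under 1 FPKM were lower. Retnlg, Ltf, Ngp and Mmp9 had log2 fold changes of -2.60, -1.47, -1.32 and -0.92, and Mpo, Elane and Cxcr2 of -0.72, -0.37 and -0.17. Lcn2 and Camp went the other way, at 0.58 and 0.27, and DESeq2 gave no adjusted p for any of these. How far RNA of red blood cells, macrophages, lymphocytes, plasma cells or platelets contributed to the lists above was not tested. Leaving out 1 library ended the calls of Il7r, Sdc1 and Csf3r at least once.

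Most of the largest falls were in genes of low level, and some of these varied widely among the Con libraries. Cgnl1, a junction protein, was at 1.04, 2.31 and 4.67 FPKM in Con and 0.566, 0.604 and 0.828 FPKM in Van, where Con 3 exceeded Con 1 by more than 4 times. Gm20431 was at 0.529, 1.99 and 5.19 FPKM in Con and 0.304, 0.387 and 0.301 FPKM in Van, but it is a read-through model over Ube2v1 and Tmem189 and its count is uncertain. Cst7, an inhibitor of cathepsins, was at 2.71, 3.02 and 5.46 FPKM in Con and 1.92, 2.3 and 1.105 FPKM in Van. Upb1, an enzyme of pyrimidine breakdown, was at 1.6, 1.23 and 1.41 FPKM in Con and 0.673, 0.708 and 0.6499 FPKM in Van and Colq, a collagen that anchors acetylcholinesterase, at 1.93, 1.55 and 2.36 FPKM in Con and 0.789, 1.03 and 0.829 FPKM in Van. For these last 2 genes the calls held without each library in turn. Cgnl1, Gm20431, Upb1 and Colq averaged under 1 FPKM in Van and met the rule of 1 FPKM through Con. Treml2 and Slc14a1 fell from 3.55 ± 0.475 to 1.91 ± 0.234 FPKM and from 2.95 ± 0.328 to 1.58 ± 0.221 FPKM. Cgnl1, Gm20431 and Cst7 were no longer called in at least 1 of those 6 fits.

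Several large groups held no call at this threshold by DESeq2. These were the 82 cytosolic ribosomal proteins, the 78 nuclear respiratory chain genes, 30 regulators of G protein signalling and G proteins, 30 amino acid transporters and sensors, 23 cytoplasmic aminoacyl-tRNA synthetases and 18 subunits of the vacuolar ATPase. An unadjusted DESeq2 p under 0.05 was reached by 0, 3, 3, 7, 3 and 3 genes of these lists in that order, and edgeR called 0 genes in each. When 1 library was left out, calls reached 2 among amino acid transporters, without Con 1. They reached 1 among synthetases, without Con 2, and 1 among vacuolar ATPase subunits, without Con 1. Correction for GC content called 1 synthetase lower. Sorted by the letters that begin their symbols, 73 families had at least 15 members, and 17 of them held no call. Of 173 Slc transporters 11 were called, and of 218 Zfp zinc finger genes 11. Of the 975 genes, 401 were on the functional lists used here and 574 on none.

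GC content and gene length moved with the direction of the calls. Protein-coding genes were sorted into 5 equal bins by the GC content of their exons. In the lowest bin 58 were higher and 147 lower, and in the highest bin 161 were higher and 44 lower. After each library was corrected for GC content the same bins held 83 higher and 93 lower, and 81 higher and 70 lower. That correction called 852 genes, 445 higher and 407 lower, and 766 of them were among the 975 with the same sign. Sorted by the span of the gene, the shortest bin held 80 higher and 45 lower and the longest 99 higher and 168 lower. The share of genes called rose with level, from 5.30% at 1 to 5 FPKM to 14.9% at 100 FPKM and above. Whether GC content differs between the libraries for a technical reason was not tested. The chaperone, interferon and PYHIN counts given above were the same or within 1 gene after the correction. Other lists lost calls under it, with immediate early genes going from 6 to 1, ARF regulators from 6 to 2, TRIM proteins from 9 to 4 and glucocorticoid receptor targets from 7 to 5.

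**Figure D5:**
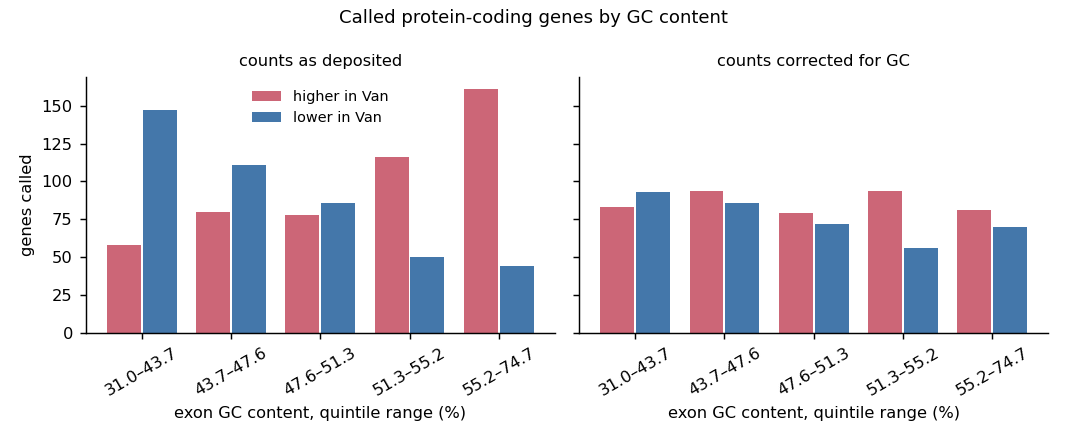
Number of protein-coding genes called higher (red) and lower (blue) in Van, in 5 equal bins of exon GC content (horizontal axis, percent), from counts as deposited on the left and from counts corrected for GC content on the right. The tilt from 58 higher and 147 lower in the lowest bin to 161 higher and 44 lower in the highest is mostly gone on the right.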

How the data were processed

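Poly(A) RNA of splenic monocytes was sequenced from a stranded library kit. According to the methods, the authors aligned reads to GRCm38 with HISAT2 2.2.1 and SAMtools 1.9 and quantified genes with StringTie 2.1.3 and Ballgown. The deposited FPKM values and the deposited expected counts per gene come from that quantification, the counts through tximport 1.26.1, and the authors tested them with DESeq2 1.38.3. The annotation release and the strand setting of the quantification are not given in the sources used here, so genes with antisense partners are uncertain. The counts appear to follow from coverage divided by an assumed read length of 75 bases, which the sources used here do not state. Reads were 100 bases long in pairs, so fragments were estimated as counts times 75 over 200. Totals were 43070361 to 61383806 expected counts, or an estimated 16151385 to 23018927 fragments, and if so p-values on the deposited scale assume more counts than fragments.

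The expected counts, each rounded to a whole number, were tested with DESeq2 1.42.0 (two-sided Wald test, median-of-ratios size factors, default filtering) in R 4.3.3 on the 3 Con and 3 Van libraries, over all detected genes, with Benjamini-Hochberg adjustment and a threshold of 0.05. edgeR 4.0.16 (quasi-likelihood) and limma 3.58.1 on log2(FPKM + 1) were run beside it. Levels are given as FPKM. Scripts were tested on simulated data. The members and lists were chosen with earlier results of these data known. Of the 975 calls, those named first were the 12 largest changes per direction without overlap of groups and with at least 50 normalized counts, the 10 most abundant, and up to 4 per list by adjusted p. Other called genes that are named were chosen after their values were seen. Sites, coordinates of genes and exon overlaps came from a GRCm38 annotation matched to 99.6% of members, and promoter windows from RefSeq (GRCm38.p6) matched to 7918. Results for a few genes are not reported here.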

Additional observations from a re-analysis of the deposited data

How the results depend on the processing

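The count of calls depended most on the test. Against 975 genes (503 higher, 472 lower, 401 of them on lists), edgeR called 296 (163 higher, 133 lower, 140 on lists), edgeR with counts on the fragment scale 345 (184 higher, 161 lower), limma on log2(FPKM + 1) 46 (34 higher, 12 lower, 24 on lists), limma on log2(FPKM + 0.1) 52 (37 higher, 15 lower), and limma over all detected genes 24 (20 higher, 4 lower). With all 9 libraries in the fit, 297 genes were lower and 242 were on lists, with 685 calls in all. A block on the replicate number gave 563 calls, 274 higher and 289 lower. Deviations from the group mean correlated at 0.078, -0.052 and -0.079 between same-numbered libraries. The highest correlation was 0.143, between Con 2 and Van 3. With 3 libraries per group, these values cannot decide whether the numbers pair the samples. Leaving out 1 library gave 496 (without Van 2) to 954 (without Van 1) calls, 255 to 445 higher, 241 to 511 lower, and 223 to 406 on lists, with 279 lower without Con 3. Counts of calls under TMM library sizes (950), a filter of 10 counts (967), no independent filtering (762), DESeq2 on the fragment scale (719), protein-coding genes only (874), members with a mean FPKM of at least 5 (768), correction for GC content (852), correction for GC content and length (859) and a fit on members only (1022) stayed within 1.5 times of 975. The corrections, the edgeR fit on the fragment scale and the fit on members only were chosen after seeing the data.

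Of the 304 genes covered by the naming rule, 4 had no value with protein-coding genes only, and the limit of 5 FPKM, which leaves the fit as it is, was not run gene by gene. With these exceptions, none changed direction under the settings above. Their calls held for 145 with edgeR, 26 with limma on log2(FPKM + 1), 221 with the replicate block and 273 with correction for GC content, and for 201 (without Van 2) to 264 (without Van 1) in the fits without 1 library. The cause of the difference between tests was not tested.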

Other observations

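Some called genes stood in runs of neighbours with the same direction, found after values were seen. Camk2g, Plau, Vcl and Pdlim2 among them are also on the lists used above. Ap3m1, Camk2g, Plau and Vcl, 4 genes next to each other among those analysed at chr14:20734875-21052508, were all lower in Van, with log2 fold changes between -0.75 and -0.24. Vcl and Ap3m1 overlap on opposite strands, over 26% and 30% of their exon sequence, so their reads may not be separate. Narf, Foxk2 and BC017643 at chr11:121222588-121309896 were all higher, between 0.25 and 0.41. Bin3, Ccar2 and Pdlim2 at chr14:70100105-70177681 were lower, between -0.31 and -0.27. Of these 10 genes, the calls of Vcl and Pdlim2 were lost in 5 of the 6 fits that each left out 1 library, that of Ap3m1 in 4, and those of Camk2g, Plau and Foxk2 in 3.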
